A study of Homo sapiens with 12 samples.

Results

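Tudor-SN was depleted by siRNA in HEK293T cells, which are a line of human embryonic kidney origin, and their mature microRNAs (miRNAs) were counted from small RNA libraries. There were 3 libraries from cells that received the Tudor-SN siRNA and 3 from cells that received a control siRNA. These 6 libraries form the short RNA run of the series: the RNA had been enriched for molecules below 200 nt, the libraries were TruSeq small RNA libraries amplified with 12 cycles of PCR and purified from polyacrylamide, and the sequencer was a NextSeq 500. All cells grew in medium with 10% fetal bovine serum, and the groups differed in the siRNA. A second run of the same comparison, with 3 libraries per siRNA, was made from total RNA with another size selection and sequencer, and served only to test whether the effect differed between the runs. The members described here were the mature miRNAs with at least 10 raw counts in at least 3 of the 6 libraries of the short RNA run, which were 228 of the 2588 entries in the deposited table. A further 557 entries had counts but fell under that minimum. At its edge, miR-362-3p was a member with 21, 11 and 10 counts in the Tudor-SN libraries and 3, 3 and 1 in the control libraries, and miR-671-5p was left out with 25, 15 and 9 counts in the Tudor-SN libraries and 2, 2 and 3 in the control libraries. The messenger RNA of SND1, the gene that encodes Tudor-SN, was not measured, so these data hold no check of the knockdown. The labels do not say whether the replicates were grown as separate cultures, and the spread that the p-values rest on may be technical.

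A miRNA gene is transcribed into a long precursor, from which a hairpin is cut by DROSHA and then by DICER1. Each hairpin gives a 5p and a 3p strand. The strand loaded into an Argonaute protein becomes the mature guide, and bases 2 to 8 of the guide, the seed, pair with target messenger RNAs. Tudor-SN is a protein of staphylococcal nuclease domains and a Tudor domain that was found in the RNA-induced silencing complex, and it has been described as an endonuclease that cuts miRNAs at CA and UA dinucleotides, a route called Tudor-SN-mediated miRNA decay. The comparison asks which mature miRNAs stand higher when Tudor-SN is depleted.

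Mature sequences are shown for the miRNAs on which the results turn, with the seed in capitals, as RefSeq gives them with assembly GRCh38.p14. Of the 228 members, 202 matched a RefSeq mature sequence by name. The first set holds members that were among the largest increases or the most abundant that rose.
miR-1-3p: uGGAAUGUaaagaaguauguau
miR-126-3p: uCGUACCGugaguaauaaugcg
miR-362-5p: aAUCCUUGgaaccuaggugugagu
miR-501-3p: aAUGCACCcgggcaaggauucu
miR-17-5p: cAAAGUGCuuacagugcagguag
miR-99b-5p: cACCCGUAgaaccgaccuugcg
miR-125a-5p: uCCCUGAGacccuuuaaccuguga
let-7f-5p: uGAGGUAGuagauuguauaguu
miR-98-5p: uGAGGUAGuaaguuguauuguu
The second set holds relatives of these that share a seed with a member above and yet fell. The miR-99 pair share the seed ACCCGUA, the miR-125 pair CCCUGAG and the let-7 members GAGGUAG.
miR-99a-5p: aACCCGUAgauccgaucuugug
miR-125b-5p: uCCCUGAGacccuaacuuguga
let-7c-5p: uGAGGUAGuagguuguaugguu
The third set holds members among the largest decreases.
miR-16-2-3p: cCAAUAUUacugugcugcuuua
miR-629-5p: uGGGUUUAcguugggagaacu
miR-1291: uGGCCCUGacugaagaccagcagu
miR-1248: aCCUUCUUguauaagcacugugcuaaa
miR-3651: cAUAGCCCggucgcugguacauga
miR-1260a: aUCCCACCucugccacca
miR-4454: gGAUCCGAgucacggcacca

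The miRNA totals were 1092713, 796496 and 658568 in the Tudor-SN libraries and 246159, 270191 and 222452 in the control libraries, so every Tudor-SN library was deeper than every control library. The 228 members held between 99.8% and 99.9% of the counts of each library. The sum over the Tudor-SN libraries was 3.45 times the sum over the control libraries, and depth and siRNA cannot be told apart in the results that follow. For an entry with 0 counts the upper limit is 3 counts, or 2.74 to 4.52 CPM (counts scaled to a common library total) in Tudor-SN libraries and 10.9 to 14 CPM in control libraries, for counting error only. Of the members, 157 had 10 counts or more in all 6 libraries. Another 28 reached the minimum in Tudor-SN libraries alone and none in control libraries alone. Of these 28, 4 rose and none fell, and since they passed through one group only, their direction was in part fixed by the choice.

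With the siRNA against Tudor-SN, 50 of the 228 miRNAs were higher and 47 were lower than with the control siRNA, at a Benjamini-Hochberg adjusted p below 0.05 in edgeR's quasi-likelihood test. That was 21.9% higher, 20.6% lower and 42.5% in either direction. The levels of the groups did not overlap for 113 members, or 49.6%. The median log2 fold change of all 228 members was 0.003, after trimmed-mean (TMM) scaling of the library totals. Under upper quartile scaling the median was -0.207, and 34 miRNAs were higher and 68 lower, so the balance of the directions depends on the scaling. With no minimum other than 1 count, TMM scaling put the median of 785 entries at 0.178, and calls of some decreases ended, among them miR-10a-5p at -0.05, miR-99a-5p at -0.13, miR-148a-3p at -0.005, let-7c-5p at -0.32, miR-1246 at -0.31, miR-181b-5p and miR-221-5p at -0.17 and miR-30c-2-3p at -0.85. Levels below are TMM-scaled CPM, log2 fold changes are Tudor-SN siRNA over control siRNA with their standard errors (SE), and means carry the SD over 3 libraries.

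**Figure D1:**
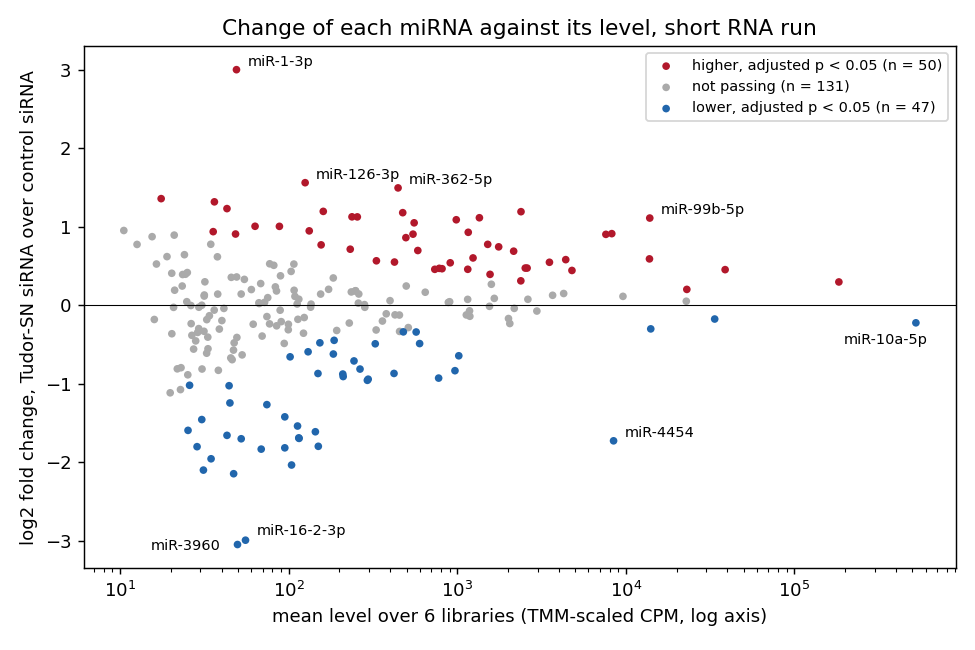
Each point is a miRNA, with its mean TMM-scaled CPM over the 6 libraries on a log axis and its log2 fold change, Tudor-SN siRNA over control siRNA, on the vertical axis. The 50 miRNAs that rose lie above 0 and the 47 that fell below it, and both kinds occur at low and high levels. From 1000 to 10000 CPM 17 rose and 2 fell, and under upper quartile scaling 11 rose and 7 fell. miR-4454 stands at -1.73 among abundant members that changed by less.

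The members were also split by their mean level. Among all members 21.9% rose and 20.6% fell. Of the 34 members between 1000 and 10000 CPM, 17 rose and 2 fell, with a median log2 fold change of 0.29. Of the 9 members over 10000 CPM, 5 rose and 3 fell, and the median was 0.20. Members from 100 to 1000 CPM numbered 80, of which 20 rose and 25 fell, and their median was 0.01. Under 100 CPM, 8 of 105 rose and 17 fell, and the median was -0.18. Those that rose there include miR-1-3p, miR-576-3p, miR-455-5p and miR-107. These reached the minimum in Tudor-SN libraries alone, so that their direction was in part fixed by the choice. The median of this class includes such members. Under upper quartile scaling those medians were 0.08, -0.01, -0.20 and -0.39 in the same order, so the scaling sets the sign for the class over 10000 CPM and for that from 100 to 1000 CPM. A scaling moves the medians of all classes by about the same amount, so it does not bear on the differences between these medians. The calls did depend on it. Under upper quartile scaling 11 rose and 7 fell from 1000 to 10000 CPM, and 3 rose and 3 fell over 10000 CPM. From 100 to 1000 CPM 15 rose and 32 fell there, and under 100 CPM 5 rose and 26 fell.

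Among the 10 most abundant miRNAs the changes were smaller than among rare ones, apart from miR-99b-5p, described with its family. miR-10a-5p, which lies in the HOXB gene cluster and was the most abundant miRNA, had 484650, 490420 and 477150 CPM in the Tudor-SN libraries and 552200, 546960 and 597480 CPM in the control libraries. It fell by 0.22 on the log2 scale (SE 0.043, adjusted p = 1.86e-06), and the groups did not overlap. Its relative miR-10b-5p, from the HOXD cluster, averaged 202050 ± 1236 CPM with Tudor-SN siRNA and 164600 ± 8798 CPM with control siRNA, a rise of 0.30 (SE 0.052, adjusted p = 2.05e-07), and this call ended under upper quartile scaling at 0.09. miR-183-5p rose to 44811 ± 3352 CPM, against 32752 ± 1409 CPM in controls, and miR-182-5p to 16580 ± 1410 CPM, against 11021 ± 628 CPM. miR-25-3p and miR-26a-5p did not pass, with log2 fold changes of 0.05 and 0.11 (SE 0.075 and 0.087). miR-92a-3p averaged 24585 ± 439 CPM in Tudor-SN libraries and 21388 ± 350 CPM in control libraries (log2 fold change 0.20, adjusted p = 0.0195). Its call ended without control replicate 3, Tudor-SN replicate 1 or Tudor-SN replicate 3, with values of 0.16, 0.21 and 0.19, and its sign turned under upper quartile scaling.

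miR-1-3p, a miRNA known from heart and skeletal muscle, increased most. It had 105, 71 and 51 counts in the Tudor-SN libraries and 5, 2 and 1 in the control libraries, or 95.8, 89.6 and 76.8 CPM against 20.1, 7.23 and 4.67 CPM. The groups did not overlap, the log2 fold change was 3.0 (SE 0.42, adjusted p = 1.13e-10), and the control level lay near the limit of 10.9 to 14 CPM that a count of 0 allows. It reached the minimum in Tudor-SN libraries alone. The 2 strands of the endothelial miR-126, which lies in an intron of EGFL7, rose together. miR-126-3p had 185, 169 and 209 CPM with Tudor-SN siRNA and 72.4, 68.7 and 46.7 CPM with control siRNA (log2 fold change 1.56, SE 0.24, adjusted p = 4.06e-09). miR-126-5p averaged 749 ± 68.2 CPM and 361 ± 27.4 CPM in the same order (1.05, SE 0.15). All 3 Tudor-SN libraries lay above all 3 control libraries for both strands.

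Among the other large increases, miR-375, known from pancreatic islets, averaged 659 ± 52.2 CPM with Tudor-SN siRNA and 291 ± 22.1 CPM with control siRNA (log2 fold change 1.18). miR-9-3p, a strand of a hairpin known from the developing brain, had 204, 237 and 225 CPM in Tudor-SN libraries and 80.4, 76.0 and 140 CPM in control libraries (1.19, SE 0.22, adjusted p = 4.42e-07). miR-708-5p had 61, 48 and 44 counts in Tudor-SN libraries and 10, 6 and 3 in control libraries (1.23, adjusted p = 0.00339). A further pair of increases rested on few control counts and reached the minimum in Tudor-SN libraries alone. miR-576-3p, from an intron of SEC24B, had 19, 27 and 16 counts against 3, 1 and 3, with a log2 fold change of 1.36 (adjusted p = 0.0469). Its call ended without control replicate 1 or 2 or Tudor-SN replicate 2 or 3, at values of 0.92 to 1.53, and with DESeq2 at 1.37 (adjusted p = 0.146). miR-455-5p, from an intron of the collagen gene COL27A1, had 52, 36 and 41 counts against 6, 3 and 6 (1.32, adjusted p = 0.00406), and its call ended without control replicate 2, at 0.97.

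**Figure D2:**
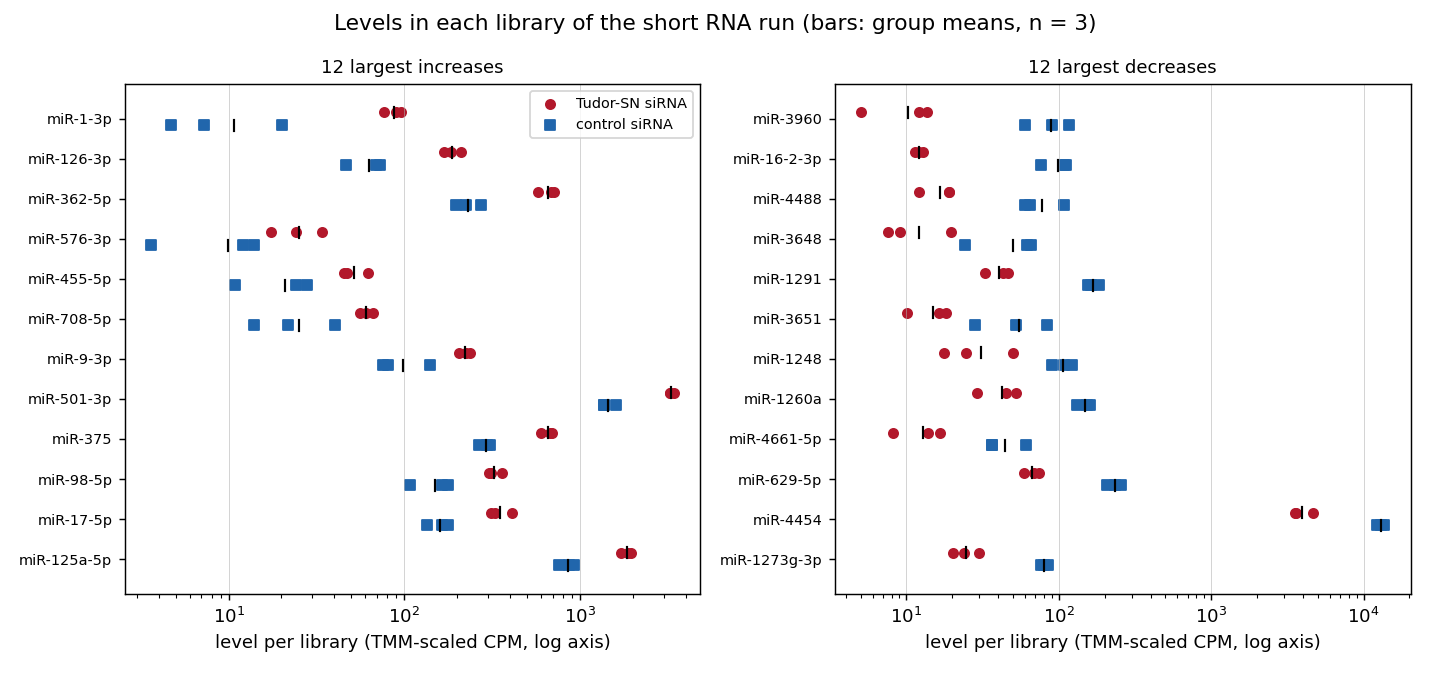
Points are the TMM-scaled CPM of single libraries on a log axis for the 12 largest increases and the 12 largest decreases whose groups do not overlap, with Tudor-SN libraries as circles drawn above the control libraries as squares, and bars for the group means. miR-1-3p has the widest gap among the increases, with means of 87.4 and 10.7 CPM, and miR-4454 is the most abundant of the decreases, with means of 3920 and 12984 CPM.

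The decreases were led by entries with few counts. miR-3960 had 13.7, 5.05 and 12.1 CPM in the Tudor-SN libraries and 60.3, 90.4 and 117 CPM in the control libraries, and it fell by 3.05 on the log2 scale (SE 0.38, adjusted p = 5.15e-13). The less abundant strand of the second miR-16 hairpin, miR-16-2-3p, lies in an intron of SMC4 at chr3:160404745-160404825 and had 14, 9 and 8 counts in Tudor-SN libraries against 27, 21 and 24 in the shallower control libraries. In CPM that was 12.8, 11.4 and 12.1 against 109, 76.0 and 112, and the log2 fold change was -2.99 (SE 0.36, adjusted p = 8.02e-14). The 5p strand miR-16-5p, which 2 hairpins give, averaged 2147 ± 203 CPM with Tudor-SN siRNA and 2208 ± 139 CPM with control siRNA and did not pass (-0.04, SE 0.11). miR-629-5p, from an intron of TLE3, had 68.5, 59.3 and 73.8 CPM in Tudor-SN libraries and 257, 235 and 206 CPM in control libraries (-1.8, SE 0.21, adjusted p = 4.01e-14). In all of these every Tudor-SN library lay below every control library.

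Raw counts show what these decreases rest on. For the 47 miRNAs that fell, the ratio of summed raw counts, Tudor-SN over control libraries, had a median of 1.7 and ranged from 0.415 to 3.06, against the ratio of 3.45 for the totals. The ratio was at most 1.5 for 22 of them and at most 1 for 10. For the 50 that rose, the median ratio was 6.08. miR-1291 had 47, 26 and 31 counts in Tudor-SN libraries and 46, 45 and 33 in control libraries, and miR-4661-5p had 9, 11 and 11 against 9, 10 and 13. Their decreases in CPM, of -2.03 and -1.8 on the log2 scale, therefore stand on counts that were alike while the library totals were not, and the part that depth or composition has in them was not tested.

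Of the entries that resemble transfer RNA, ribosomal RNA or small nucleolar RNA (snoRNA), 30 of a list of 36 were in the table and 11 were members, of which 10 fell, against 20.6% among all members, and none rose. The member that did not pass was miR-1290, at -0.30. Their median log2 fold change was -1.83, and -2.04 under upper quartile scaling. miR-4454, whose sequence resembles part of a transfer RNA, was the most abundant. It had 5063, 2864 and 2340 counts in the Tudor-SN libraries and 3032, 3782 and 2799 in the control libraries, or 4621, 3613 and 3526 CPM against 12189, 13679 and 13085 CPM (-1.73, SE 0.092, adjusted p = 4.66e-49). miR-1260a and miR-1260b fell by 1.82 and 1.70 on the log2 scale. miR-4488 and miR-3648, which are rich in G and C, fell by 2.15 and 2.10. miR-1246 had 560, 455 and 478 CPM in Tudor-SN libraries and 856, 651 and 589 CPM in control libraries (-0.49, adjusted p = 0.00159), and the call ended without control replicate 1, at -0.35. The hairpins of 3 members overlap an annotated snoRNA on the same strand in GENCODE release 29, and all 3 fell. miR-1291 at chr12:48654444-48654530 overlaps SNORA2C and averaged 40.8 ± 7.19 CPM with Tudor-SN siRNA and 167 ± 15.8 CPM with control siRNA. miR-3651 at chr9:92292458-92292547 overlaps SNORA84 and averaged 14.8 ± 4.24 and 54.5 ± 27.6 CPM in the same order. miR-1248 at chr3:186786672-186786777 overlaps SNORA81 and averaged 30.7 ± 16.9 and 107 ± 15.6 CPM. The counts do not show the lengths of the reads behind these entries.

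Several groups that share a transcript or a seed moved together. A group of miRNAs lies in an intron of the chloride channel gene CLCN5 on chromosome X, from miR-532 at chrX:50003148-50003238 to miR-502 at chrX:50014598-50014683. Of its 15 strands 9 were members, and 6 rose and none fell, against 21.9% higher and 20.6% lower among all members. The median log2 fold change was 0.70 (0.49 under upper quartile scaling, with 5 called). miR-501-3p had 3255, 3451 and 3261 CPM in the Tudor-SN libraries and 1379, 1602 and 1379 CPM in the control libraries (1.19, SE 0.11, adjusted p = 7.13e-21). miR-362-5p had 581, 686 and 710 CPM against 197, 275 and 224 CPM (1.49, SE 0.16, adjusted p = 1.97e-16). In both, each Tudor-SN library stood above each control library. miR-660-5p, miR-502-3p, miR-532-5p and miR-500a-3p rose by 1.0, 0.70, 0.60 and 0.46, and the call of miR-500a-3p ended under upper quartile scaling at 0.25. The other 3 members, miR-362-3p, miR-532-3p and miR-500a-5p, had log2 fold changes of 0.77, 0.41 and 0.35 and did not pass. Of these, miR-362-3p and miR-532-3p reached the minimum in Tudor-SN libraries alone, so that their direction was in part fixed by the choice. The median of 0.70 includes them. In this group miR-501-3p and miR-502-3p share the seed AUGCACC, and relatives with similar sequences can share reads.

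The polycistronic miR-183, miR-96 and miR-182 cluster on chromosome 7, known from sensory organs, had 3 members. All of them rose, against 21.9% higher among all members. miR-96-5p averaged 852 ± 59.6 CPM with Tudor-SN siRNA and 620 ± 45.9 CPM with control siRNA (0.46, adjusted p = 0.00224), and this call ended under upper quartile scaling at 0.25, where the other members remained called. Log2 fold changes were 0.59 for miR-182-5p and 0.45 for miR-183-5p.

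The miR-17-92 cluster and its paralogs are hosted by MIR17HG and by introns of MCM7 and others, and are known to promote proliferation. Of their 23 strands 13 were members, and 8 rose and 1 fell, against 21.9% higher and 20.6% lower among all members. The median was 0.55, and 0.34 under upper quartile scaling with 6 higher and 1 lower. miR-17-5p had 330, 312 and 413 CPM in Tudor-SN libraries and 165, 177 and 136 CPM in control libraries (1.12, SE 0.18, adjusted p = 2.43e-08), with no overlap. miR-18a-5p, miR-20a-5p and miR-19b-3p rose by 0.95, 0.90 and 0.69, and the rare strand miR-92a-1-5p fell by 0.81. The 4 members with the seed AAAGUGC were miR-17-5p, miR-20a-5p and miR-93-5p, which rose, and miR-106b-5p, which had a log2 fold change of 0.20 (SE 0.20) and did not pass. These relatives differ by few bases and can share reads.

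The let-7 miRNAs, which restrain growth and pluripotency genes, and miR-98-5p made 9 members with 1 seed. Of these 5 rose and 1 fell, under TMM and upper quartile scaling alike. Among all members 21.9% rose and 20.6% fell under TMM scaling. let-7f-5p had 10730, 10197 and 11377 CPM in the Tudor-SN libraries and 5821, 5516 and 5848 CPM in the control libraries (0.91, SE 0.090, adjusted p = 4.24e-19). miR-98-5p had 304, 312 and 359 CPM against 165, 109 and 178 CPM (1.12, SE 0.19). let-7c-5p went the other way, with 268, 285 and 259 CPM in Tudor-SN libraries and 494, 300 and 351 CPM in control libraries (-0.49, SE 0.16, adjusted p = 0.00703). Control replicate 1 stood highest there, and without it the value was -0.29 and the call ended. let-7e-5p, let-7d-5p and let-7b-5p had values of 0.18, 0.20 and -0.03 and did not pass.

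Relatives with one seed from different loci also went opposite ways in the miR-99 and miR-125 families. miR-99b and miR-125a lie close together on chromosome 19, at chr19:51692612-51692681 and chr19:51693254-51693339, within an annotated intron of SPACA6. miR-99b-5p had 18675, 20073 and 18066 CPM with Tudor-SN siRNA and 7678, 9766 and 8887 CPM with control siRNA (1.11, SE 0.083, adjusted p = 1.85e-29). miR-125a-5p had 1724, 1955 and 1879 CPM against 868, 930 and 762 CPM (1.11, SE 0.12, adjusted p = 5.62e-16). Both pairs of groups were well apart. miR-99a-5p, which lies beside let-7c in MIR99AHG on chromosome 21, had 12250, 12789 and 12705 CPM in Tudor-SN libraries and 13053, 15636 and 17840 CPM in control libraries (-0.30, SE 0.083, adjusted p = 0.00103). miR-125b-5p had 690, 715 and 686 CPM against 1005, 1429 and 1290 CPM (-0.83, SE 0.13, adjusted p = 1.81e-09). In all of these the groups did not overlap. miR-100-5p, the other member with the seed ACCCGUA, had 0.10 (SE 0.27) and did not pass. Over the 7 members of these families and miR-10 the median was 0.10, and its sign turned to -0.12 under upper quartile scaling.

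In the miR-148 and miR-152 family decreases prevailed. miR-152-3p, miR-148a-3p and miR-148b-3p share the seed CAGUGCA.
miR-152-3p: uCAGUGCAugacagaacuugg
miR-148a-3p: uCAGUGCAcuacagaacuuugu
miR-148b-3p: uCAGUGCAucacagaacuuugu
With the 5p strand of miR-148a they made 4 members, of which 3 fell and none rose, against 20.6% lower among all members, and under upper quartile scaling all 4 fell. miR-152-3p had 222, 187 and 188 CPM in Tudor-SN libraries and 442, 387 and 332 CPM in control libraries (-0.96, SE 0.17, adjusted p = 1.2e-07), without overlap. miR-148a-5p fell by 0.94, to 203 ± 5.10 CPM with Tudor-SN siRNA against 389 ± 85.8 CPM with control siRNA. The abundant miR-148a-3p had a log2 fold change of -0.18 (adjusted p = 0.0328), a call that ended when any of control replicates 2 and 3 or any Tudor-SN library was left out, at -0.14 to -0.19, and with DESeq2 (adjusted p = 0.0659). Among 8 members of the miR-30 family 3 fell and none rose, which is 37.5% called against 42.5% of all members. The 3 that fell were 3p strands. miR-30a-3p averaged 533 ± 75.3 CPM with Tudor-SN siRNA and 1018 ± 8.06 CPM with control siRNA (-0.93, SE 0.13), and miR-30e-3p 796 ± 66.6 and 1246 ± 58.7 CPM in the same order (-0.64). miR-30c-2-3p fell by 1.03, and its call ended without control replicate 2, at -0.95. The 5p strands miR-30a-5p, miR-30e-5p and miR-30c-5p, which share the seed GUAAACA, had -0.31, -0.45 and -0.24 and did not pass.

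In the miR-103 and miR-107 family, which lies in introns of the pantothenate kinase genes, 3 of 4 members rose, against 21.9% higher among all members. Among them was miR-107, which reached the minimum in Tudor-SN libraries alone, so that its direction was in part fixed by the choice. miR-103a-3p had 3170, 2146 and 2292 counts in the Tudor-SN libraries and 588, 580 and 440 in the control libraries. miR-103b had 3215, 2078 and 2173 counts in Tudor-SN libraries and 589, 569 and 413 in control libraries, close to those of miR-103a-3p. The annotated hairpins lie on opposite strands of the same place, and over 23 nt each mature sequence is the reverse complement of the other.
miR-103a-3p: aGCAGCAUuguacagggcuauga
miR-103b: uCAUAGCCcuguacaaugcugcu
Their log2 fold changes were both 0.47, and both calls ended under upper quartile scaling, at 0.27 and 0.26. Whether the counting used strand is not given in the sources used here, so their separate values are uncertain. The same holds for miR-3184-3p and miR-423-5p and for miR-374b-5p and miR-374c-3p, antisense pairs with complementary stretches of 23 and 22 nt. In the fourth such pair, with a stretch of 21 nt, the counts were unequal. miR-3184-5p had 33, 36 and 20 counts in Tudor-SN libraries and 8, 9 and 10 in control libraries, and miR-423-3p had 864, 823 and 597 in Tudor-SN libraries and 170, 174 and 140 in control libraries, with log2 fold changes of -0.06 and 0.47. miR-107 had 52, 30 and 37 counts in Tudor-SN libraries and 4, 8 and 6 in control libraries (0.94, adjusted p = 0.0463), and the call ended without any 1 of the control libraries, Tudor-SN replicate 1 or Tudor-SN replicate 3, at 0.67 to 1.1, under upper quartile scaling, at 0.73, and with DESeq2, at 0.92.

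For the other families the members were fewer or did not pass. None of the 6 members of the miR-23, miR-24 and miR-27 family passed, nor did the 3 members each of miR-26 and miR-29, the 4 of miR-130, miR-301 and miR-454 or the 2 each of miR-196 and of miR-193 and miR-365. Among all members 42.5% passed. The medians of these families lay between -0.25 and 0.26. Under upper quartile scaling 1 member of the miR-23 group, 1 of miR-26 and both of miR-196 fell. Their members miR-193a-5p, miR-29b-3p and miR-454-5p reached the minimum in Tudor-SN libraries alone, so that their direction was in part fixed by the choice. Of 7 members of the miR-15 and miR-16 family, miR-16-2-3p alone passed, and 3 fell under upper quartile scaling. miR-378a-3p, from an intron of PPARGC1B, rose to 5270 ± 93.0 CPM, against 3528 ± 125 CPM in controls (0.58), while miR-378a-5p and miR-378c did not pass at 0.62 and 0.12. The strand miR-378a-5p also reached the minimum in Tudor-SN libraries alone. miR-191-5p rose by 0.44 and miR-320a by 0.86, and the call of miR-191-5p ended under upper quartile scaling at 0.23. In the miR-28, miR-151 and miR-708 group, miR-708-5p alone passed, and miR-28-3p, miR-151a-5p and miR-151a-3p had -0.23, 0.15 and 0.08, and 1 member of the group fell under upper quartile scaling. No member was a listed mirtron, and miR-34a-5p had 0.78 (adjusted p = 0.11).

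**Figure D3:**
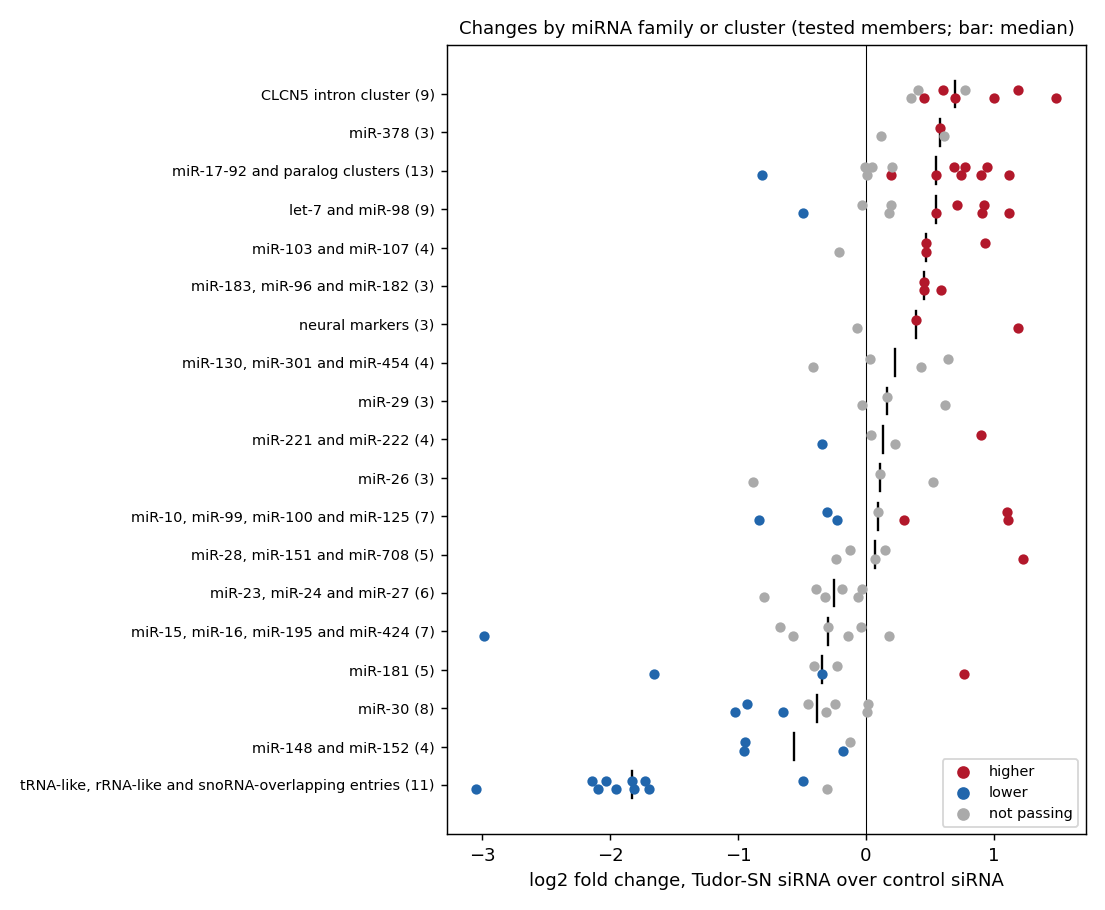
Each point is a member miRNA of the family, cluster or list named on the left, with the number of tested members in brackets, placed at its log2 fold change, Tudor-SN siRNA over control siRNA, and coloured by its call, with a bar at the median. The CLCN5 intron cluster lies wholly above 0 with a median of 0.70, but its miR-362-3p and miR-532-3p reached the minimum in Tudor-SN libraries alone. The entries like other noncoding RNA lie lowest with a median of -1.83. Under upper quartile scaling the medians of the miR-10, miR-221, miR-26, miR-28 and miR-29 rows fall below 0.

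The strands of single hairpin names did not always move alike. The ratio of the 5p to the 3p count within a library needs no scaling between libraries, and it was tested for 35 hairpin names with both strands among the members. It changed for 10 of them, or 28.6%, by edgeR, and for 4 by limma on the log2 ratios, where miR-10a, miR-148a, miR-30a, miR-423, miR-9 and miR-99b did not pass (adjusted p 0.11 to 0.113). The 10 comprised 6 with the 5p strand up relative to the 3p strand and 4 with the 3p strand up. In 8 of these 10 the more abundant strand was up relative to the less abundant one, and over all 35 names that was so for 21. Of the 35 more abundant strands 13 rose and 5 fell, with a median log2 fold change of 0.17, and of the 35 less abundant strands 3 rose and 5 fell, with a median of 0.01. Among all members 21.9% rose and 20.6% fell. The less abundant strands include miR-455-5p, which rose, and miR-362-3p, miR-378a-5p, miR-532-3p and miR-454-5p. These reached the minimum in Tudor-SN libraries alone, so that their direction was in part fixed by the choice. Under 100 CPM 23.8% of members were called, against 42.5% of all, and level was not separated from strand.

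For miR-221, a miRNA known to target cell cycle inhibitors, the log2 ratio of 5p to 3p was -4.26, -4.21 and -4.42 in the Tudor-SN libraries and -2.94, -3.20 and -3.04 in the control libraries, a change of -1.24 (SE 0.14, adjusted p = 7.65e-15). Its abundant strand miR-221-3p rose to 9917 ± 890 CPM, against 5305 ± 386 CPM in controls. miR-221-5p averaged 503 ± 11.1 CPM with Tudor-SN siRNA and 637 ± 88.9 CPM with control siRNA (-0.34, adjusted p = 0.0375), a call that ended without control replicate 1 or any Tudor-SN library, at -0.25 to -0.35. miR-222-3p, from the same host transcript, had 0.04 (SE 0.13) and did not pass.

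For miR-181a the strands differ as follows, each shown with its seed in capitals.
miR-181a-5p: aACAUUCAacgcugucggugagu
miR-181a-3p: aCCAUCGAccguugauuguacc
The log2 ratio of 5p to 3p was 3.0, 3.37 and 3.73 in Tudor-SN libraries and 1.93, 1.70 and 1.99 in control libraries, a change of 1.42 (SE 0.36, adjusted p = 0.000769). Hairpins on chromosomes 1 and 9 give miR-181a-5p, and that on chromosome 1 alone gives miR-181a-3p, so this ratio is not that of a single hairpin. The entry miR-181a-2-3p was a separate member and did not pass. miR-181a-3p had 29, 14 and 11 counts with Tudor-SN siRNA and 17, 19 and 13 with control siRNA and fell by 1.66, while miR-181a-5p had -0.23 (SE 0.18) and did not pass. Of the 5 members of the miR-181 family 1 rose and 2 fell, against 21.9% higher and 20.6% lower among all members. Under upper quartile scaling 3 of the family fell. Within the seed group ACAUUCA, miR-181d-5p rose by 0.77 and miR-181b-5p had -0.34 (adjusted p = 0.0471). The call of miR-181b-5p ended without control replicate 1 or 2 or any Tudor-SN library, at -0.31 to -0.36.

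For miR-17 the log2 ratio was 1.3, 1.19 and 1.59 in the Tudor-SN libraries and 0.54, 0.48 and -0.31 in the control libraries (change 1.11, SE 0.27, adjusted p = 0.000769). miR-17-5p rose and miR-17-3p, at 0.01 (SE 0.21), did not pass. For miR-10a and miR-10b the abundant 5p strands changed by -0.22 and 0.30, and the rare 3p strands fell by 0.91 and 1.02, so the ratio rose by 0.69 and 1.32 (SE 0.17 and 0.41). miR-10a-3p had 147, 109 and 112 counts with Tudor-SN siRNA and 61, 77 and 64 with control siRNA, and miR-10b-3p had 19, 16 and 9 against 9, 11 and 6. The call of miR-10b-3p itself (adjusted p = 0.0471) ended without control replicate 1 or 2 or Tudor-SN replicate 1 or 3, at -0.91 to -1.04, and with DESeq2. The miR-10b ratio call ended without control replicate 2, at 1.17. For miR-99b the ratio rose by 0.93 (SE 0.26), a call that also ended without control replicate 2, at 0.60. For miR-148a the 3p strand was up relative to the 5p strand by 0.77, with a log2 ratio of 5p to 3p of -7.22, -7.28 and -7.32 in Tudor-SN libraries and -6.08, -6.56 and -6.95 in control libraries.

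miR-9 and miR-30a were the names whose less abundant strand was up relative to the other. The miR-9 ratio was 3.17, 2.67 and 3.14 in Tudor-SN libraries and 4.18, 3.97 and 3.24 in control libraries (change -0.80, adjusted p = 0.00251), and the call ended without control replicate 1, at -0.61. miR-9-5p itself rose by 0.39, a call that ended without control replicate 2 or Tudor-SN replicate 3, at 0.32 and 0.31, and under upper quartile scaling, at 0.19. The miR-30a ratio changed by 0.62 (adjusted p = 0.0417) and that of miR-423 by -0.62 (adjusted p = 0.037). Their calls ended without any 1 of the control libraries and without Tudor-SN replicate 2, at 0.58 to 0.63 and -0.49 to -0.67. The miR-30a call also ended without Tudor-SN replicate 1, at 0.55, and the miR-423 call without Tudor-SN replicate 3, at -0.58. The miR-423 ratio rests on miR-423-5p, with 142, 90 and 71 counts in Tudor-SN libraries. Its antisense miR-3184-3p had 130, 96 and 70 there, so the separate values and this ratio are uncertain. The name miR-3184 was also among those tested and did not pass.

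**Figure D4:**
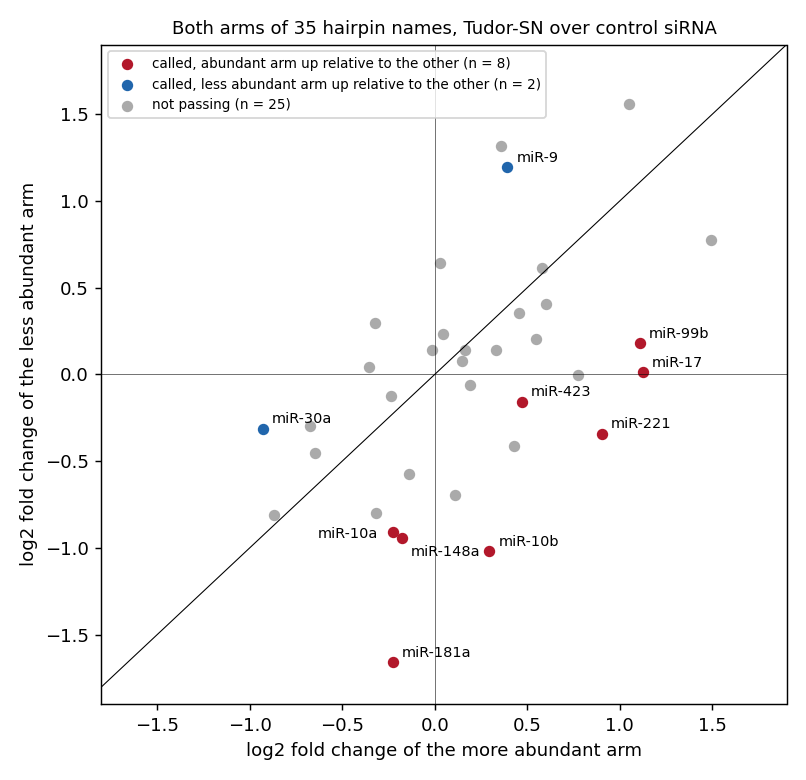
Each point is a hairpin name, with the log2 fold change of its more abundant strand across and that of its less abundant strand up, both Tudor-SN siRNA over control siRNA, and a line where they are equal. Of the 10 names whose 5p to 3p ratio changed, 8 lie below the line, with miR-181a and miR-221 among the farthest, and miR-9 and miR-30a lie above it.

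Since Tudor-SN has been described to cut at CA and UA, these dinucleotides were counted in the 202 members with a sequence, taking as inner those at least 5 nt from either end. Inner CA or UA was present in 42 of 46 miRNAs that rose, or 91.3%, in 27 of 39 that fell, or 69.2%, and in 98 of 117 that did not pass, or 83.8%. Those that rose include miR-1-3p, miR-455-5p and miR-107, which hold inner sites, and miR-576-3p, which holds none. These reached the minimum in Tudor-SN libraries alone, so that their direction was in part fixed by the choice. Such members remain in the medians and correlations below. Over the distinct RefSeq mature sequences the share was 69.6%, and 89.3% held CA or UA at any place. The median log2 fold change was -0.41 for the 35 members with no inner CA or UA, -0.001 for 89 members with 1, 0.044 for 47 members with 2 and 0.216 for 30 members with 3, and miR-96-5p alone held more. The miRNAs that rose include these 3, with inner CA and UA in capitals.
miR-708-5p: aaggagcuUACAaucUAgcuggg
miR-98-5p: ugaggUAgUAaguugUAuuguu
miR-17-5p: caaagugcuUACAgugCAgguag
The miRNAs that fell and hold none include these 3.
miR-4488: agggggcgggcuccggcg
miR-3648: agccgcggggaucgccgaggg
miR-1260a: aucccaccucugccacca
Without the entries like other noncoding RNA, the shares with inner CA or UA were 91.3% of 46 that rose, 73.3% of 30 that fell and 84.5% of 116 that did not pass, and the medians were -0.36, 0.035, 0.044 and 0.233 for 0, 1, 2 and 3 inner sites. Across the 202 members the number of inner sites and the log2 fold change had Pearson's r = 0.26 and Spearman's rho = 0.25, as a description of miRNAs that share these 6 libraries, their depth and, within families, their sequence. Length had r = 0.26 and GC content r = -0.24 with the log2 fold change over the same members, and these properties were not separated from the count of sites. Individual members went against the pattern. miR-576-3p and miR-1180-3p rose with no inner CA or UA, and let-7c-5p and miR-1248 fell with 3.

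The composition of the libraries was dominated by a few miRNAs. miR-10a-5p alone held 48.6%, 48.8% and 48.1% of the miRNA counts of the Tudor-SN libraries and 55.8%, 56.0% and 57.5% of those of the control libraries. The 10 most abundant miRNAs together held 87.0% ± 0.296 with Tudor-SN siRNA and 88.5% ± 0.423 with control siRNA. The 7 members of the miR-10 and miR-99 to miR-125 families held 72.2% ± 0.285 and 75.5% ± 0.470 in the same order. Entries like other noncoding RNA held 0.471% ± 0.0675 and 1.47% ± 0.0855. Each of these 4 differences had a two-sided exact permutation p of 0.1, the smallest that 3 against 3 libraries allows, so none could pass 0.05. When miR-10a-5p was taken out of the numerator and the total, the difference, Tudor-SN minus control, was 1.18 percentage points for the others of the 10 most abundant, in place of -1.48, and 2.2 for the others of the families, in place of -3.32.

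The effect of the siRNA differed between the runs for 41 of 211 miRNAs that reached the minimum in both, or 19.4%, by edgeR's test of the interaction of siRNA and run with libraries scaled within each run. The effect was above that of the total RNA run for 25 and below it for 16. With TMM scaling over all 12 libraries the counts were 58 and 6, so the split depends on the scaling. Leaving out control replicate 1 or Tudor-SN replicate 2 of the total RNA run left 10 and 9 in place of 16. A difference passed for 23 of 49 miRNAs that rose in the short RNA run, for 12 of 41 that fell and for 6 of 121 that did not pass. These classes were formed on the short RNA run effect, which is also part of the difference. How often a difference passed in each class was therefore in part fixed by the choice. Run, RNA fraction, size selection and sequencer cannot be told apart in these differences. In the total RNA run, too, every Tudor-SN library was deeper than every control library, with totals of 1710708 to 3140214 against 927727 to 1653077. Depth and siRNA therefore cannot be told apart in either run, nor where the runs gave similar values.

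In the joint fit, miR-99b-5p and miR-125a-5p had log2 fold changes of 1.06 and 1.06 in the short RNA run and 0.31 and 0.25 in the total RNA run, with differences of 0.74 and 0.81 (SE 0.12 and 0.13). miR-20a-5p had 0.85 in the short RNA run and 0.04 in the total RNA run, and miR-1180-3p had 0.95 and -0.04. On the other side, miR-4454 had -1.78 in the short RNA run and -0.33 in the total RNA run, a difference of -1.45 (SE 0.14, adjusted p = 7.35e-08). Its level was 160, 153 and 147 CPM in the Tudor-SN libraries of the total RNA run and 190, 203 and 182 CPM in the control libraries there. miR-1260a and miR-1260b had differences of -1.27 and -1.41, and miR-3960 one of -1.98. miR-374b-5p had -0.93 in the short RNA run and 0.26 in the total RNA run. miR-16-2-3p had -3.05 in the short RNA run and -2.73 in the total RNA run, where it had 28.3, 21.1 and 25.5 CPM in Tudor-SN libraries and 189, 165 and 145 CPM in control libraries, and the difference of -0.33 (SE 0.34, adjusted p = 0.533) did not pass. The signs of the fitted effects were opposite in the 2 runs for 15 of the 41. For some of these 15, the effect in a run was smaller than its SE. Examples are miR-222-3p at -0.01 (SE 0.11) in the short RNA run and miR-423-3p at -0.04 (SE 0.083) in the total RNA run. For others, both effects exceeded their SE, as for miR-27b-3p at -0.37 (SE 0.11) and 0.23 (SE 0.069). The share with opposite signs among all miRNAs tested in both runs was not compared, so the count alone does not show reversals.

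**Figure D5:**
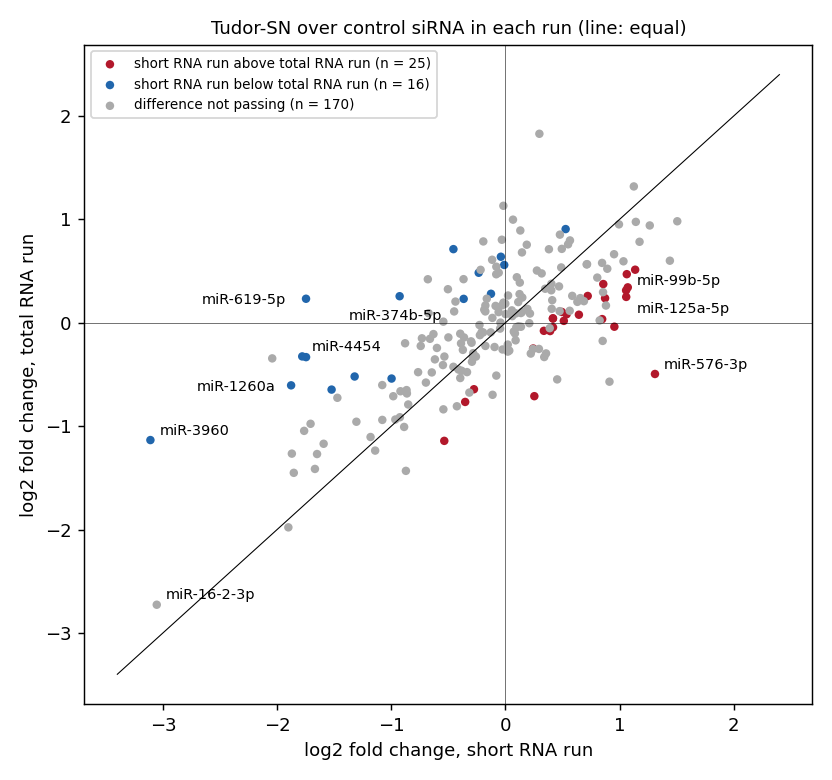
Each point is one of 211 miRNAs, with its log2 fold change, Tudor-SN siRNA over control siRNA, in the short RNA run across and in the total RNA run up, and a line where they are equal. The 25 miRNAs with a larger value in the short RNA run lie right of the line and include miR-99b-5p and miR-125a-5p, and the 16 with a smaller value lie left of it and include miR-4454 and miR-3960.

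Marker miRNAs of other cell types were mostly at 0. The liver marker miR-122-5p, all 6 blood markers and all 7 pluripotency markers had no count in any of the 6 libraries. Of 5 muscle markers 3 had no count in any library and miR-1-3p was the member described above, with 51 to 105 counts for the summed list in Tudor-SN libraries and 1 to 5 in control libraries. Of 6 epithelial markers 4 had no count, the summed list had 25 to 52 counts in Tudor-SN libraries and 7 to 15 in control libraries, and miR-200c-3p had -0.04 (SE 0.37). The 2 endothelial markers, the strands of miR-126, summed to 662 to 937 counts in Tudor-SN libraries and 90 to 124 in control libraries, and the islet marker miR-375 had 398 to 765 and 57 to 82 in the same order. The 4 neural markers summed to 2251 to 3456 counts in Tudor-SN libraries and 567 to 728 in control libraries. All these sums are raw counts, and the Tudor-SN totals were 3.45 times the control totals. The neural marker miR-124-3p had counts but fell under the minimum. Among the neural markers both miR-9 strands rose, miR-9-5p not under upper quartile scaling, and the brain-enriched miR-128-3p had -0.07 (SE 0.12). The part of other cells or RNA sources in these values was not tested. The HOX cluster miRNAs miR-196b-5p and miR-196a-5p had -0.07 and -0.17 and did not pass, and under upper quartile scaling both fell.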

How the data were processed

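The data are the authors' deposited raw counts per mature miRNA, whole numbers with 1 column per library. Another 24 columns of per-sample values in the same table were not used. The submitters' processing notes name Bowtie2 for the short RNA run, and for the total RNA run Bowtie2, DESeq, DESeq2 and cutadapt. The sources used here do not give the aligner settings, genome build, annotation, use of strand or handling of reads with several matches, and near-identical miRNAs can share reads. Groups came from the labels.

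Counts were tested in R 4.3.3 with edgeR 4.0.16 (quasi-likelihood F test, TMM, library size the sum of all miRNA counts, Benjamini-Hochberg over all members, threshold 0.05). The strand ratio was tested with diffSpliceDGE on the same libraries and, as an alternative, with limma 3.58.1 on log2 ratios with 0.5 added. The difference between runs was the interaction of siRNA and run over all 12 libraries. DESeq2 1.42.0, other scalings and filters, a replicate block and leaving out each library were alternatives. Steps were tested on simulated data. Totals were 222452 to 1092713 counts in the short RNA run and 927727 to 3140214 in the total RNA run. PCR copies are not independent molecules, so the limits given for 0 counts cover counting error alone. Replicates of a group differed by more than sampling noise, with chi-square per degree of freedom of 2.31 to 6.52.

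Members, lists and tests were chosen with earlier results of these data known. The text names the 12 largest increases and decreases past the threshold without overlap, the 10 most abundant, of each list the 3 most abundant and up to 3 more past the threshold, up to 6 strand ratios and run differences in each direction, up to 5 members that passed the minimum in 1 group and seed groups of at least 3 members. Other named members complete a list, pair or seed group or illustrate a count, and were chosen after their values were seen. Sequences and positions are from RefSeq (GRCh38.p14), which matched 2281 of the 2588 names, and hosts and snoRNA overlaps from GENCODE release 29 (GRCh38).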

Additional observations from a re-analysis of the deposited data

Results flagged for a closer look

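The effect of the siRNA differed between the short RNA run and the total RNA run for the following miRNAs by a test of the difference itself. Differences are the log2 fold change in the short RNA run minus that in the total RNA run. The signed log2 fold change was higher in the short RNA run for miR-576-3p by 1.81, miR-1180-3p by 0.99, miR-3529-3p by 0.96, miR-20a-5p by 0.81, miR-125a-5p by 0.81 and miR-99b-5p by 0.74. For miR-3529-3p it was 0.25 in the short RNA run and -0.71 in the total RNA run. The signed log2 fold change was lower in the short RNA run for miR-619-5p, with a difference of -1.98, for miR-3960 with -1.98, miR-4454 with -1.45, miR-1260b with -1.41, miR-1260a with -1.27 and miR-374b-5p with -1.18. The difference of miR-576-3p was past the threshold with all libraries (adjusted p = 0.0441) and was not past it when any of 9 of the 12 libraries was left out.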

How the results depend on the processing

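Over the alternatives run, the number of miRNAs that rose stayed within 1.5 times of 50 and the number that fell within 1.5 times of 47, with 43 to 50 higher and 41 to 48 lower when 1 library was left out. Upper quartile scaling turned the sign of miR-92a-3p, to -0.0066. A filter of only 1 count moved the median to 0.178. Of 75 named calls, 22 ended under at least 1 alternative and 14 of these when a library was left out. The strand ratio passed for 4 names with limma in place of 10, and for 7 to 10 names without 1 library. Differences between runs numbered 58 above and 6 below with TMM over all 12 libraries, and 17 to 29 above and 9 to 19 below without 1 library. As shares of counts without miR-10a-5p, the difference was 1.18 percentage points for the 10 most abundant, 2.2 for the miR-10 and miR-99 to miR-125 families and -2.46 for entries like other noncoding RNA, and with miR-10a-5p included, leaving out 1 library moved none of the 4 shares by more than the replicate spread.

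Deviations from the group mean over 123 miRNAs had r of 0.183, 0.219 and 0.029 between same-numbered libraries of the groups. Between libraries with different numbers r was -0.38 to 0.219. With 3 libraries per group these values cannot tell whether same numbers mark a shared culture, and the labels do not say. With the replicate block, 51 miRNAs were higher and 51 lower, 10 strand ratios passed, and 31 and 19 differences between runs passed.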

Other observations

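The levels of 2 miRNAs, chosen after their values were seen, stood far apart between the runs. miR-22-3p had 17, 11 and 13 raw counts in the Tudor-SN libraries and 8, 14 and 11 in the control libraries of the short RNA run. It was called lower there, at -1.46. In the total RNA run it had 29511, 24458 and 13717 raw counts in Tudor-SN libraries and 10681, 21244 and 12984 in control libraries. In CPM that was 8609, 8062 and 7769 against 12462, 12894 and 12904. The difference of the effect between the runs was -0.88 (SE 0.285, adjusted p = 0.0483 by the interaction test). miR-4454 lay the other way, at 3920 ± 609 CPM with Tudor-SN siRNA and 12984 ± 751 CPM with control siRNA in the short RNA run and at 147 to 160 CPM in Tudor-SN libraries and 182 to 203 CPM in control libraries of the total RNA run.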
